A study of Homo sapiens with 6 samples.

Results

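The genes described here are 10 members of the pathway that carries growth factor and nutrient signals to the kinase complex mTORC1. They were chosen by gene name: every guide in the count table whose gene is NPRL2, TSC1, PIK3R1, RHEB, MTOR, PIK3CA, PIK3CB, PDPK1, AKT1 or AKT2. All 10 were present, of 7093 genes in the table, each with 10 guides, and all 100 guides passed the filter on low library counts. The guides were read out in a growth screen of CRISPR knockouts in HAP1 cells, a near-haploid human line of chronic myeloid leukaemia origin. The 3 groups of 2 samples each were SETD2-mutant HAP1 cells, parental HAP1 cells and the guide library. Both cell groups carried the guide virus, added at a multiplicity of infection of 0.7, were kept in puromycin and were sampled after 12 doublings. SETD2 encodes the enzyme that trimethylates histone H3 at lysine 36. The labels give neither the number of clones behind the SETD2-mutant line nor how the library samples were taken. The replicates of a line were split after 1 transduction, so p-values cover no spread from before that split. The spread was estimated from all 6 samples together. Library replicates varied less (chi-square per degree of freedom 1.37) than SETD2-mutant (12.9) and parental replicates (14.1). Guide counts do not read the cell type or the SETD2 genotype.

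mTORC1 drives protein synthesis and cell growth when nutrients and growth factors are present. PI3-kinases, activated by receptors, make the lipid PIP3, which recruits the kinases PDK1 (gene PDPK1) and AKT to the membrane. AKT inactivates the TSC complex, which otherwise turns off RHEB, the small GTPase that switches mTORC1 on at the lysosome. GATOR1, to which NPRL2 belongs, holds mTORC1 back when amino acids are scarce. In a growth screen, a guide that becomes rarer marks a knockout whose cells multiplied less than the rest of the pool, and a guide that becomes more frequent marks one whose cells multiplied more.

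Total counts ranged from 25082426 to 38428425 per sample, with median counts per guide from 284 to 466, and the shallowest was SETD2-mutant replicate 1. Guide levels are given as edgeR's CPM, the count relative to the TMM-scaled total of the sample. For each gene, the log2 fold changes that edgeR fitted to its guides were averaged, and the standard error (SE) is that over guides, which share a target and are not replicates of a condition. A gene was called depleted or enriched where robust rank aggregation (RRA) of its guides gave a Benjamini-Hochberg adjusted p below 0.05 over 7090 genes. Changes are relative to the bulk of genes: with scaling on the 100 guides named dummyguide (the labels do not say what these target), the median gene stood at −0.97 in SETD2-mutant and −0.79 in parental cells against library, in place of −0.05 and −0.01.

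The clearest difference between the lines lay in the brakes on mTORC1. Loss of NPRL2 or TSC1 was followed by depletion in SETD2-mutant cells relative to parental cells, by 2.85-fold and 3.19-fold, whereas none of the 8 other members was called in either direction. Guides to both genes were rarer than in the library in SETD2-mutant cells and, with TMM scaling but not with dummyguide scaling, more frequent than in the library in parental cells. In this comparison 2 of 10 members were called depleted and 0 enriched by edgeR with RRA, against a background of 1.28% of all genes depleted and 1.03% enriched. With DESeq2 per guide 2 were depleted and 0 enriched, where DESeq2 called 84 and 77 of all 7090 genes. With limma 3 were depleted and 2 enriched, where limma called 1585 and 910 of all 7090 genes. Before adjustment, 1 of the members not called had an RRA p under 0.05, PIK3CB at 0.00438 for enrichment. By edgeR with RRA the split over all genes was 91 depleted and 73 enriched. It was 64 depleted and 119 enriched when losses were rescaled to equal loss of ribosomal protein genes in the lines.

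**Figure D1:**
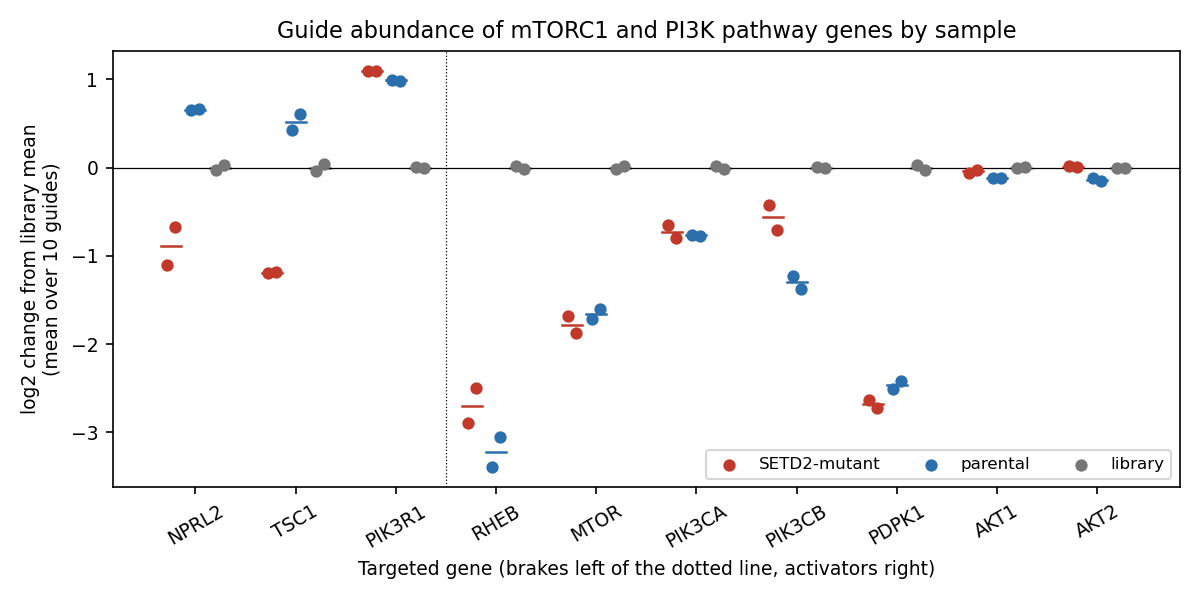
Log2 change of each gene from the library mean (y axis, mean over 10 guides of log2 CPM) for the 2 SETD2-mutant, 2 parental and 2 library samples; points are samples and bars are group means. NPRL2 and TSC1 lie below 0 in both SETD2-mutant samples and above 0 in both parental samples (below 0 in parental cells with dummyguide scaling), while PIK3R1 lies near 1 in all 4 cell samples.

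NPRL2 (chromosome 3, 50347330 to 50350775 in GRCh38) encodes a subunit of GATOR1, which inactivates the Rag GTPases that bring mTORC1 to the lysosome. Its median guide stood at 6.62 and 6.54 CPM in SETD2-mutant cells, 16.7 and 19.5 CPM in parental cells and 9.34 and 9.15 CPM in the library. Both SETD2-mutant samples were thus below the library and both parental samples above it. As mean log2 change from the library, the SETD2-mutant samples had −1.10 and −0.67 and the parental samples 0.65 and 0.66, with no overlap between the lines. Between the lines NPRL2 changed by −1.51 (SE 0.265, 10 of 10 guides down), and edgeR with RRA gave an adjusted p of 4.66e-05. It passed in all 17 alternative settings run, with changes from −1.80 to −1.35. Among these, the median over guides leaves the RRA p as in the reported fit, so that setting could not alter the call.

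Among the NPRL2 guides, 7 of 10 were lower in SETD2-mutant cells by the single-guide edgeR test at an adjusted p below 0.05, and 0 were higher. Of all guides, 12.8% were lower and 11.5% higher by that test, so single-guide calls were common throughout the library. The guide with the largest difference, HZD_SRF_25197, had counts of 139 and 166 in SETD2-mutant cells, 2013 and 1055 in parental cells and 393 and 395 in the library. That guide was below its library level in SETD2-mutant cells and above it in parental cells. HZD_SRF_25195 differed least, at −0.29, with 24 and 104 counts in SETD2-mutant cells, 96 and 84 in parental cells and 300 and 301 in the library. It and HZD_SRF_25199 were the only NPRL2 guides below the library in parental cells, at −1.70 and −0.55.

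TSC1 (chromosome 9, 132891349 to 132945378) encodes hamartin, which stabilises TSC2, the GTPase-activating protein that inactivates RHEB. The median TSC1 guide stood at 5.92 and 3.61 CPM in SETD2-mutant cells, 10.8 and 12.4 CPM in parental cells and 7.83 and 8.43 CPM in the library. The mean log2 changes from the library were −1.20 and −1.18 in the SETD2-mutant samples and 0.43 and 0.61 in the parental samples. The lines did not overlap, and they lay on opposite sides of the library, as for NPRL2. Between the lines TSC1 changed by −1.67 (SE 0.420, 9 of 10 guides down), and edgeR with RRA gave an adjusted p of 0.00307. It passed in all 17 alternatives, among them the median over guides, which could not alter the call. The changes ran from −1.82 to −1.52.

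TSC1 guides were more spread than those of NPRL2, from −4.39 to 0.10 between the lines, and 7 of 10 were lower by the single-guide test. The guide with the largest difference, HZD_ODT_10386, fell to 14 and 32 counts in SETD2-mutant cells, against 700 and 468 in parental cells, with 193 and 193 in the library. HZD_ODT_10391, the only TSC1 guide with a positive change between the lines, had 741 and 1272 counts in SETD2-mutant cells, 1112 and 1123 in parental cells and 916 and 800 in the library. On the log2 scale it stood above the library in both lines, at 0.53 in SETD2-mutant and 0.43 in parental cells, and differed by 0.10 between them.

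**Figure D2:**
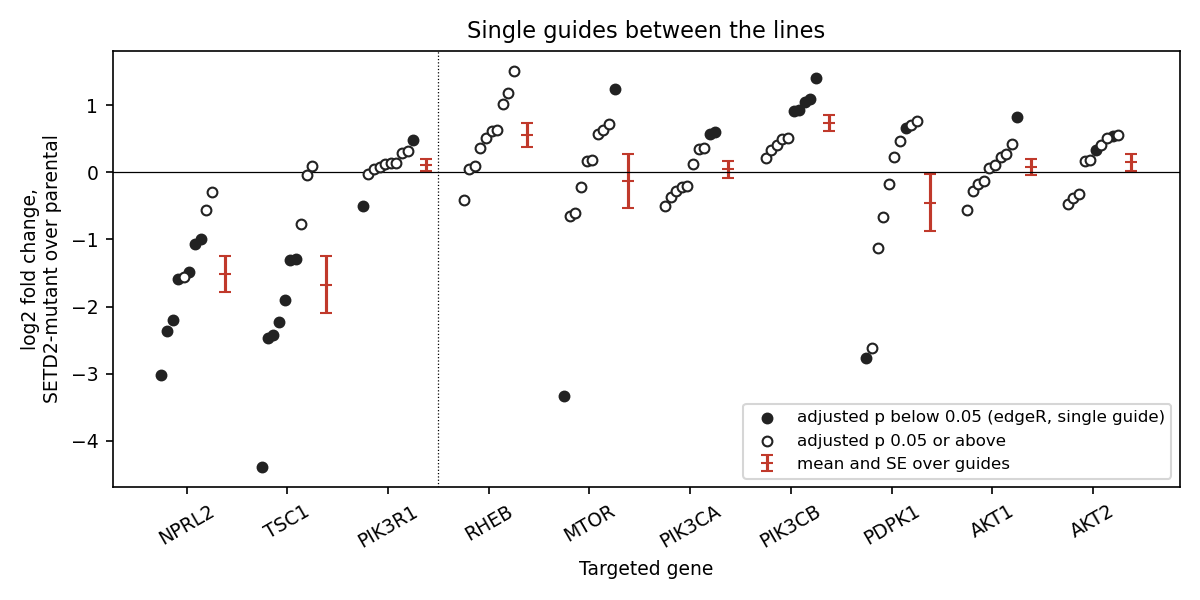
Log2 fold change of every guide between the lines (y axis, SETD2-mutant over parental) for each gene (x axis), with filled points for guides at an adjusted p below 0.05 by edgeR and bars for the mean and SE over guides. The guides of NPRL2 and TSC1 lie at or below 0.10, those of PIK3CB all lie above 0, and single low guides of MTOR and PDPK1 stand apart from the rest of their gene.

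Set against the library, neither brake was called in either line by edgeR with RRA. NPRL2 stood at −0.84 (SE 0.242, 10 of 10 guides down, adjusted p = 0.414) in SETD2-mutant cells and at 0.67 (SE 0.355, 8 of 10 guides up, adjusted p = 0.0508) in parental cells. TSC1 stood at −1.14 (SE 0.331, adjusted p = 0.0894) in SETD2-mutant cells and at 0.53 (SE 0.181, adjusted p = 0.587) in parental cells. limma on gene means, which calls far more genes, called both depleted in SETD2-mutant cells (adjusted p = 0.00109 and 1.56e-05) and both enriched in parental cells (0.00505 and 0.00123). Single samples also moved these calls: without parental replicate 1 NPRL2 was enriched in parental cells (adjusted p = 0.0339), and without library replicate 1 TSC1 was depleted in SETD2-mutant cells (0.0410). With dummyguide scaling the parental values turned to −0.10 for NPRL2 and −0.24 for TSC1, so their position above the library in parental cells depends on the scaling. In SETD2-mutant cells both were below the library under that scaling too, at −1.76 and −2.06. The comparisons with the library share the library samples, and the difference between the lines does not use them as a contrast.

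Genes beside the brakes were also examined, except those called between the lines, so a local shift strong enough to be called could not appear. How many were left out was not counted. Uncalled genes within 5 Mb had a median change of −0.13 around NPRL2 (76 genes, lowest −1.24) and −0.04 around TSC1 (60 genes, lowest −1.26), against −0.04 for all genes. Guide identifiers carry class prefixes whose meaning is not stated, and the median guide of the classes that hold these genes changed by 0.00 (NPRL2) and 0.01 (TSC1) between the lines.

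PIK3R1 (chromosome 5, 68215756 to 68301821) was enriched in both lines. It encodes p85-alpha, the regulatory subunit that stabilises the catalytic subunits of PI3-kinase and holds them inactive until a receptor is engaged. For PIK3R1 the median guide stood at 60.1 and 64.8 CPM in SETD2-mutant cells, 57.0 and 54.8 CPM in parental cells and 30.5 and 31.3 CPM in the library. All 4 cell samples were above both library samples, and the cell samples lay close together. PIK3R1 was enriched against library in SETD2-mutant cells by 1.10 (SE 0.202, 10 of 10 guides up, adjusted p = 2.16e-08) and in parental cells by 1.00 (SE 0.166, 9 of 10 guides up, adjusted p = 8.47e-08), both by edgeR and RRA. These changes ranked at the 99.94 and 99.86 percentiles of all genes, and they stayed above 0 with dummyguide scaling at 0.18 and 0.22. Between the lines the change was 0.11 (SE 0.0821) and was not called.

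PIK3R1 was the only member enriched against library, 1 of 10 in each line, where 1.11% of all genes were enriched in SETD2-mutant cells and 1.11% in parental cells. By the single-guide test 9 of its 10 guides rose in SETD2-mutant and 9 of 10 in parental cells. The lowest guide, HZD_KIN_04469, stood at its library level in SETD2-mutant cells (0.00) and in parental cells (−0.12). The highest against library, HZD_KIN_04477, which was picked after its values were seen, had 3585 and 4361 counts in SETD2-mutant cells, 3809 and 4125 in parental cells and 1424 and 1269 in the library.

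**Figure D3:**
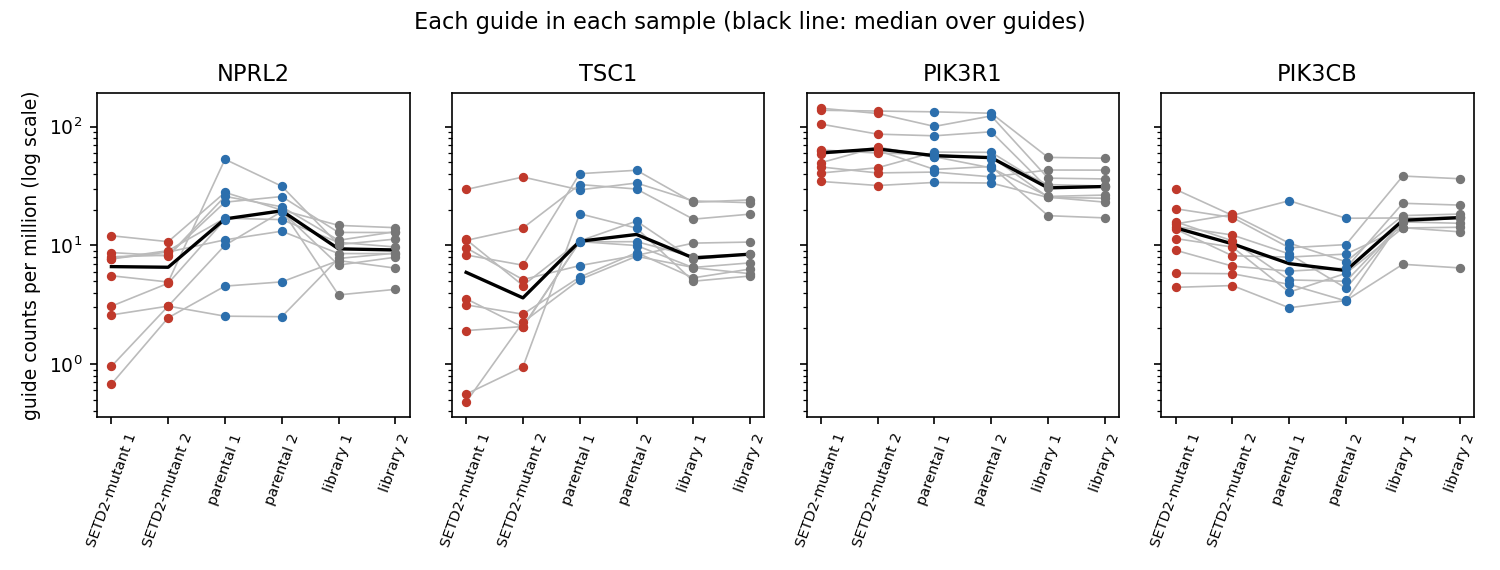
CPM of each guide (log axis) to NPRL2, TSC1, PIK3R1 and PIK3CB in the 2 SETD2-mutant, 2 parental and 2 library samples; grey lines join the samples of 1 guide and the black line is the median over 10 guides. The NPRL2 and TSC1 medians are lowest in SETD2-mutant and highest in parental cells, the PIK3R1 median is about 55 to 65 in both lines and about 31 in the library, and the PIK3CB median is lowest in parental cells.

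The activators were depleted in both lines, with exceptions by paralog. Against library, 4 of 10 members were depleted in SETD2-mutant cells (RHEB, MTOR, PIK3CA and PDPK1), where 9.04% of all genes were depleted, and 5 of 10 in parental cells (the same 4 and PIK3CB), where 9.9% were. AKT1 and AKT2 were called in neither line. Of the 100 guides of the members, 47 were lower and 18 higher than library in SETD2-mutant cells by the single-guide test, against 23.7% and 22.2% of all guides. In parental cells 45 were lower and 23 higher, against 21.1% and 18.9% of all guides.

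RHEB (chromosome 7, 151466012 to 151519895), the direct activator of mTORC1, showed the largest loss of the members in parental cells, where 10 of 10 guides were lower by the single-guide test. The median RHEB guide stood at 2.47 and 2.37 CPM in SETD2-mutant cells, 0.923 and 1.72 CPM in parental cells and 10.1 and 10.3 CPM in the library. All 4 cell samples were far below the library. The loss was −2.63 (SE 0.421, adjusted p = 0.000841) in SETD2-mutant cells and −3.19 (SE 0.341, adjusted p = 3.14e-06) in parental cells by edgeR and RRA, with 10 of 10 guides down in each. In SETD2-mutant cells the call ended with dummyguide scaling (adjusted p = 0.116) and when RRA read only the top 0.1 of ranks (0.0739). Between the lines RHEB stood at 0.55 (SE 0.182, 9 of 10 guides up), with both SETD2-mutant samples above both parental samples, but no single guide passed and RRA did not call it (adjusted p = 1). limma on gene means did (0.53, adjusted p = 0.0364). The RHEB change was 0.17 without SETD2-mutant replicate 2, 0.87 without parental replicate 2 and 0.91 at equal loss of ribosomal protein genes.

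MTOR (chromosome 1, 11106535 to 11262551) encodes the kinase shared by mTORC1 and mTORC2. The median MTOR guide stood at 5.61 and 6.13 CPM in SETD2-mutant cells, 4.29 and 5.45 CPM in parental cells and 16.5 and 16.4 CPM in the library. MTOR was depleted by −1.77 (SE 0.588, adjusted p = 0.0169) in SETD2-mutant cells and by −1.64 (SE 0.311, adjusted p = 0.000111) in parental cells, each by edgeR and RRA with 9 of 10 guides down. In SETD2-mutant cells the call ended when RRA read only the top 0.1 of ranks (adjusted p = 0.0628). As mean log2 change from the library the SETD2-mutant samples had −1.68 and −1.88 and the parental samples −1.72 and −1.60, which overlapped, although the median guide was higher in both SETD2-mutant samples. The change between the lines was −0.13 (SE 0.403). Single guides disagreed: HZD_DDR_1082 had 11 and 8 counts in SETD2-mutant and 182 and 61 in parental cells, whereas HZD_DDR_1083 had 292 and 266 in SETD2-mutant and 139 and 154 in parental cells. HZD_DDR_1080 was the only MTOR guide above its library level, at 0.97 in SETD2-mutant and 0.34 in parental cells. The guides of the identifier class that holds MTOR had a median of −0.83 in SETD2-mutant and −0.90 in parental cells against library, lower than the other classes that hold members (0.05 to 0.08 in SETD2-mutant and 0.05 to 0.07 in parental cells).

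The PI3-kinase catalytic subunits PIK3CB and PIK3CA differed in their calls against library in SETD2-mutant cells. These genes were not tested against each other. PIK3CB (chromosome 3, 138652698 to 138834928) encodes p110-beta, which receives signals from G protein-coupled receptors as well as from receptor kinases. Its median guide stood at 14.0 and 10.3 CPM in SETD2-mutant cells, 7.02 and 6.13 CPM in parental cells and 16.3 and 17.1 CPM in the library. Each SETD2-mutant sample lay between the parental and the library samples. PIK3CB was depleted in parental cells by −1.29 (SE 0.219, 9 of 10 guides down, adjusted p = 0.000686), and stood at −0.55 (SE 0.199, 9 of 10 guides down, adjusted p = 0.683) in SETD2-mutant cells, by edgeR and RRA. Between the lines all 10 guides were higher in SETD2-mutant cells, with a mean change of 0.73 (SE 0.124), and 5 passed the single-guide test. RRA did not call this difference (adjusted p = 0.203). Over 17 alternatives its adjusted p ran from 0.00289 to 0.409 and passed in 8, and the direction was the same in all 17. With 1 library sample left out it passed in both cases (0.0301 and 0.0291), as it did when parental replicate 1 (0.0298) or SETD2-mutant replicate 2 (0.0136) was left out. Leaving out SETD2-mutant replicate 1 gave 0.409, and leaving out parental replicate 2 gave 0.317.

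PIK3CA (chromosome 3, 179148126 to 179240093) encodes p110-alpha, the subunit through which most receptor tyrosine kinases and RAS signal. Its median guide stood at 10.1 and 8.95 CPM in SETD2-mutant cells, 9.78 and 9.04 CPM in parental cells and 20.5 and 18.7 CPM in the library. The values of the lines overlapped and lay below the library. PIK3CA was depleted by −0.72 (SE 0.317, adjusted p = 0.0355) in SETD2-mutant cells and by −0.76 (SE 0.263, adjusted p = 0.0187) in parental cells by edgeR and RRA, with a change of 0.04 (SE 0.128) between the lines. Single guides differed in direction: 6 of 10 were lower than library in each line by the single-guide test, while 3 were higher in SETD2-mutant cells and 1 in parental cells. The calls depended on several settings. The SETD2-mutant call was lost with dummyguide scaling (adjusted p = 0.0611), at a rank share limit of 0.1 (0.427) and without library replicate 1 (0.0729), SETD2-mutant replicate 1 (0.0701) or SETD2-mutant replicate 2 (0.210). The parental call was lost at a rank share limit of 0.1 (0.190) and without parental replicate 1 (0.0584) or replicate 2 (0.0915).

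PDPK1 (chromosome 16, 2538021 to 2603188) encodes PDK1, which phosphorylates the activation loop of AKT and of other kinases of its class. The median PDPK1 guide stood at 3.75 and 4.42 CPM in SETD2-mutant cells, 4.26 and 2.48 CPM in parental cells and 12.8 and 12.5 CPM in the library. PDPK1 was depleted by −2.87 (SE 0.978, 8 of 10 guides down, adjusted p = 0.00159) in SETD2-mutant cells and by −2.42 (SE 0.645, 9 of 10 guides down, adjusted p = 0.000226) in parental cells, by edgeR and RRA. As mean log2 change from the library the SETD2-mutant samples had −2.64 and −2.73 and the parental samples −2.50 and −2.41, without overlap. The change between the lines was −0.45 (SE 0.422), with 5 guides down and 5 up and a median over guides of 0.02. RRA did not call it, whereas limma on gene means called it depleted (−0.22, adjusted p = 0.0336).

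Against library, PDPK1 had the widest spread of guides among the members. HZD_KIN_04206, picked after its values were seen, had 1 and 1 counts in SETD2-mutant cells, 0 and 16 in parental cells and 691 and 630 in the library, so that it was almost lost from both lines. HZD_KIN_04207 had 4 and 5 counts in SETD2-mutant cells, 52 and 25 in parental cells and 510 and 502 in the library. By contrast, HZD_KIN_04202 stood above its library level at 0.46 in SETD2-mutant and 0.24 in parental cells. RefSeq lists a pseudogene, PDPK2P, on the same chromosome (2616553 to 2642490 in GRCh38). Guide sequences were not analysed here, so whether any guide also matches it was not tested.

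AKT1 (chromosome 14, 104769349 to 104795748) and AKT2 (chromosome 19, 40230317 to 40285345) encode kinases that pass the PIP3 signal to the TSC complex. The median AKT1 guide stood at 21.5 and 22.7 CPM in SETD2-mutant cells, 20.9 and 19.6 CPM in parental cells and 18.6 and 18.8 CPM in the library. The median AKT2 guide stood at 17.8 and 18.7 CPM in SETD2-mutant cells, 17.6 and 17.0 CPM in parental cells and 18.2 and 17.6 CPM in the library. With TMM scaling, neither gene was far from its library level in any sample. The changes in SETD2-mutant and parental cells were −0.04 (SE 0.249) and −0.12 (SE 0.218) for AKT1. For AKT2 they were 0.02 (SE 0.128) and −0.13 (SE 0.0797), and none was called. Between the lines AKT1 changed by 0.08 (SE 0.124) and AKT2 by 0.15 (SE 0.126). With dummyguide scaling, AKT1 stood at −0.96 in SETD2-mutant and −0.89 in parental cells against library, and AKT2 at −0.90 and −0.91. The median gene stood at −0.97 and −0.79 under that scaling. HZD_KIN_00244 departed from the other AKT1 guides, with 86 and 126 counts in SETD2-mutant cells, 189 and 189 in parental cells and 639 and 567 in the library. The next lowest AKT1 guide in SETD2-mutant cells was near its library level at −0.12.

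**Figure D4:**
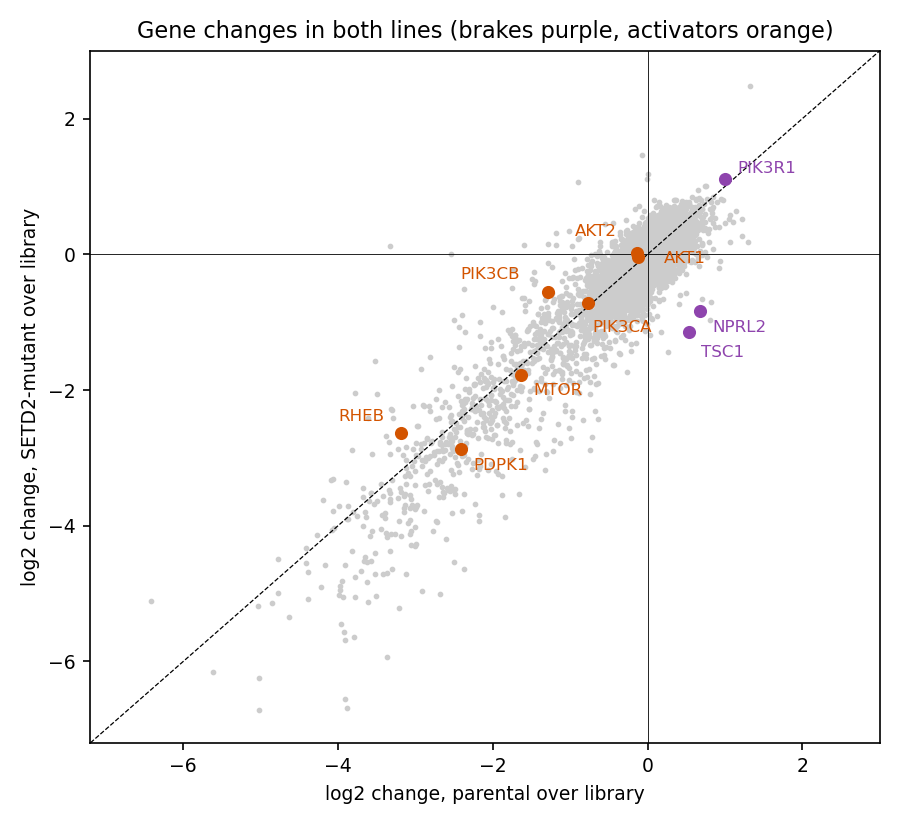
Mean log2 change of each of 7090 genes against library in parental cells (x axis) and SETD2-mutant cells (y axis), with equal change on the dashed line; both axes share the library samples. NPRL2 (−0.84 in SETD2-mutant and 0.67 in parental cells) and TSC1 (−1.14 and 0.53) lie at the lower right with the TMM scaling plotted, but left of 0 with dummyguide scaling, PIK3R1 in the upper right, and the depleted activators near the line, with PIK3CB above it.

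In rank among all 7090 genes by change between the lines, TSC1 stood at position 24 and NPRL2 at position 41 from the most depleted end, at the 0.339 and 0.578 percentiles. PIK3CB (99.1) and RHEB (98.2) stood near the opposite end, and MTOR (35.8), PIK3CA (64.1), AKT1 (69.7), PIK3R1 (73.9) and AKT2 (79.2) lay within the bulk, with PDPK1 at 8.63. Both SETD2-mutant samples were below both parental samples for 3 of 10 members and above for 5, against 38.8% and 26.9% of all genes. The median change of the 10 members was 0.06 between the lines, against −0.04 for all genes, and −0.78 in SETD2-mutant and −0.45 in parental cells against library, where all genes had −0.05 and −0.01. In the single-guide test between the lines, 17 of the 100 guides were lower and 13 higher, against 12.8% and 11.5% of all guides, and 14 of the 17 belonged to NPRL2 and TSC1.

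The genes whose change from the library was most like that of each brake, by Euclidean distance over the 4 cell samples, are given as a description. For NPRL2 they were NSD1 (distance 0.390), PHF12 (0.394), SREBF2 (0.450), CSK (0.534) and TSC1 (0.571). For TSC1 they were NSD1 (0.500), IDH3B (0.522), MTF2 (0.539), NPRL2 (0.571) and SREBF2 (0.663). NSD1, an H3K36 methyltransferase named in the title of the series, was the nearest gene of each, with −0.95 and −0.98 in the SETD2-mutant samples and 0.75 and 0.82 in the parental samples. Among the nearest to PIK3R1 were GSTT1 (0.396), MBD2 (0.419), NR2C2 (0.465) and TAOK1 (0.472).

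Other genes of the pathway came from a list of 88, of which 39 were measured. Between the lines 0 of 39 were called by edgeR with RRA in either direction, with changes from −1.09 to 0.39 and a median of −0.04. Unadjusted RRA p was under 0.05 for 4 in the depleted and 2 in the enriched direction. The share of all genes under that unadjusted threshold was not counted. With DESeq2 per guide 0 were depleted and 1 enriched, where DESeq2 called 84 and 77 of all 7090 genes. With limma 10 of the 39 were depleted and 6 enriched, where limma called 1585 and 910 of all 7090 genes. The mTORC1 inhibitor AKT1S1 (PRAS40) had the lowest value, −1.09 (SE 0.733, 8 of 10 guides down, adjusted p = 0.408). Other restraints on the pathway were FLCN at −0.46 (SE 0.365) and the AMPK-activating kinase STK11 at 0.28 (SE 0.147), and these 3 genes were picked after their values were seen. TSC2 and the other GATOR1 subunits, DEPDC5 and NPRL3, were on the list of 88 but not among the 39 measured.

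Against library, 4 of the 39 were depleted in SETD2-mutant cells, where 9.04% of all genes were, and 6 in parental cells, where 9.9% were. When RRA read only the top 0.1 of ranks these counts were 2 and 3. RPTOR, the subunit that recruits substrates to mTORC1, was depleted by −1.91 (SE 0.472, adjusted p = 0.00319) and −2.23 (SE 0.388, adjusted p = 0.00172), close to MTOR. The endosomal lipid kinase PIK3C3 was depleted by −2.58 (adjusted p = 7.24e-06) and −2.50 (1.29e-05), and the ribosomal protein RPS6, a substrate of the pathway, by −4.49 (0.000132) and −4.78 (7.87e-05), all by edgeR and RRA. RICTOR, the defining subunit of mTORC2, was depleted in parental cells at −1.38 (SE 0.262, adjusted p = 0.00112) and stood at −1.22 (SE 0.284, adjusted p = 0.169) in SETD2-mutant cells, with 0.16 (SE 0.185) between the lines. The receptor IGF1R was depleted in SETD2-mutant cells at −1.20 (SE 0.416, adjusted p = 0.00248) and stood at −0.82 (SE 0.422, adjusted p = 0.410) in parental cells. Enriched genes were the AMPK subunits PRKAA2 at 0.53 (adjusted p = 0.0335) and PRKAG2 at 0.47 (0.0233) in SETD2-mutant cells, and the transcription factor FOXO1, which AKT inhibits, at 0.49 (0.0289) in parental cells. These enriched calls ended with dummyguide scaling. The PRKAA2 call also ended without library replicate 1 or either SETD2-mutant sample, the PRKAG2 call without SETD2-mutant replicate 1, and the FOXO1 call without parental replicate 1 and with the narrower RRA ranks. Of the depleted calls named, those of RPTOR, RICTOR and IGF1R ended with the narrower RRA ranks. That of RPTOR in SETD2-mutant cells also ended with dummyguide scaling. RPS6 and PIK3C3 were called in every alternative run. Among these, the median over guides could not alter a call, nor could equal loss of ribosomal protein genes in SETD2-mutant cells against library. The AMPK subunits PRKAB2 and PRKAG1 stood below the library in SETD2-mutant cells, at −0.46 (SE 0.406) and −0.36 (SE 0.245), and were not called.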

How the data were processed

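Guide abundance was measured in 2 SETD2-mutant, 2 parental and 2 library samples. The authors deposited raw counts per guide. Per the labels' protocols, the guide region was PCR-amplified from cell DNA and sequenced in 75 bp reads. The tool MAGeCK and the build hg38 are listed, per the submitters' processing notes. Their role, version and settings are not given in the sources used here. All columns were assigned to samples by title.

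Of 71626 guides, guides other than the 100 named dummyguide were kept where their library counts averaged at least 30 (71470, with 56 set aside). Counts were scaled by TMM and all 6 samples were fitted by group with edgeR 4.0.16 (glmQLFit robust, glmQLFTest) in R 4.3.3. One-sided guide ranks were combined to genes with 3 or more guides by RRA, rebuilt here with a rank share limit of 0.25 and an exact null, and adjusted by Benjamini-Hochberg over all genes in each direction. The fit and RRA were tested on simulated data. Alternatives changed the scaling, filter, block, samples fitted, tool (DESeq2 1.42.0, limma 3.58.1 on mean log2 CPM with prior count 2), rank share limit, guide summary and replicates. The replicate values of genes are means of log2 CPM, computed here from the deposited counts. Figures were drawn with matplotlib 3.10.9.

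Between replicates, chi-square per degree of freedom was 12.9 for SETD2-mutant, 14.1 for parental and 1.37 for library samples, and no replicates were counted as 1 sample. Replicate numbers of the labels name no shared batch, and rep 1 minus rep 2 differences had correlations of −0.0050, −0.0025 and −0.0051 between groups, so they were not used as pairs. All members are described, the other pathway genes named are those called, and up to 4 per direction against library. Some genes that this rule would name are not reported here. The members and gene lists were chosen with earlier results of these data known. Gene positions are those of RefSeq on GRCh38, matched by symbol for 10 of 10 members.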

Additional observations from a re-analysis of the deposited data

Results flagged for a closer look

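NPRL2 is listed because its change from library differed between the lines by the direct test of that difference (edgeR with RRA), −1.51 in SETD2-mutant relative to parental cells, and TSC1 for the same reason, −1.67. In each case both SETD2-mutant samples lay below the library and both parental samples above it with TMM scaling, though the parental means were −0.10 and −0.24 with dummyguide scaling. What in the cells gives this difference was not tested.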

How the results depend on the processing

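The depletion of NPRL2 and TSC1 between the lines passed under all 17 alternatives, and the number of depleted members, 2, was 3 with limma (PDPK1, adjusted p = 0.0336) and 2 in the others. The number of members enriched between the lines, 0 in the reported fit, was 1 (PIK3CB) at equal loss of ribosomal protein genes, 1 with the replicate block, 1 with only the compared groups fitted and 2 with limma (RHEB and PIK3CB), and 0 to 1 when 1 sample was left out. The number enriched in parental cells against library, 1, was 2 with dummyguide scaling (NPRL2 by guide ranks, its mean being below 0), 2 with the replicate block (NPRL2) and 3 with limma (TSC1 as well), and 1 to 2 with a sample left out. The number depleted in SETD2-mutant cells, 4, was 2 with dummyguide scaling (MTOR and PDPK1), 1 at a rank share limit of 0.1 (PDPK1) and 7 with limma, and 3 to 4 with a sample left out. In parental cells 5 depleted members became 4 to 5. The replicate numbers name no shared batch, and the replicate block added PIK3CB (adjusted p = 0.0249) and NPRL2 in parental cells (0.0309) and removed no call of a member. Signs turned only for values uncalled in the reported fit. Between the lines these were PIK3R1 (−0.040), PIK3CA (−0.10) and AKT1 (−0.070) with dummyguide scaling, MTOR (0.11) and PIK3R1 (−0.040) at equal ribosomal loss, MTOR (0.18), PIK3CA (−0.039) and PDPK1 (0.022) by the median over guides, PDPK1 (0.065, with −0.54 to 0.065 over the samples left out) without parental replicate 2 and PIK3CA (−0.044, with −0.044 to 0.11) without SETD2-mutant replicate 1. Against library they were NPRL2 (−0.10) and TSC1 (−0.24) in parental and AKT2 (−0.90) in SETD2-mutant cells with dummyguide scaling, and AKT1 by the median over guides in parental (0.015) and SETD2-mutant cells (0.15). The cause was not tested. Of 500 member values, 456 kept direction and side of the threshold. The median over guides alters only the change shown and leaves the RRA p as in the reported fit, so it could not alter a call. Equal loss of ribosomal protein genes only multiplied the changes in SETD2-mutant cells against library by 0.866. In that comparison it could alter neither a sign nor a call. Over all genes, limma called 1585 depleted and 910 enriched between the lines, 2703 and 1690 in SETD2-mutant and 2234 and 1689 in parental cells, enriched genes between the lines numbered 119 at equal ribosomal loss, and those in SETD2-mutant cells numbered 35 with dummyguide scaling and 50 without SETD2-mutant replicate 1. Guides matching several genome sites were not left out, because guide sequences were not analysed here. With 2 samples a group, a gene that was not called is not shown to be unchanged.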

Other observations

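Of the other regulatory subunits of class I PI3-kinase, PIK3R2 and PIK3R3 were not called in any comparison of the reported fit. limma on gene means, which calls far more genes, called PIK3R2 depleted between the lines and enriched against library in each line. It called PIK3R3 enriched in parental cells only. Whether PIK3R2 was called in parental cells also depended on the samples included. PIK3R2 stood at 0.25 (SE 0.166) in SETD2-mutant and 0.56 (SE 0.264) in parental cells against library. PIK3R3 stood at 0.14 (SE 0.159) in SETD2-mutant and 0.32 (SE 0.0558) in parental cells. Between the lines 2 AMPK subunits came near the threshold without passing it by edgeR and RRA. PRKAG2 stood at 0.39 (SE 0.0521, 10 of 10 guides up, adjusted p = 0.0580) and PRKAA1 at 0.16 (SE 0.156, 7 of 10 guides up, adjusted p = 0.0600). PRKAG2 passed with the replicate block, with only the compared groups fitted, with DESeq2 per guide, with limma and without either library sample, and PRKAA1 at equal loss of ribosomal protein genes. These genes were picked after their values were seen. AMPK is the energy sensor that restrains mTORC1 when ATP falls. Its other subunits on the pathway list were not called between the lines by edgeR and RRA. They stood at 0.25 (PRKAB1, SE 0.130), 0.16 (PRKAG1, SE 0.0842), 0.09 (PRKAA2, SE 0.136) and −0.07 (PRKAB2, SE 0.166). All but PRKAB2 were thus opposite in sign to NPRL2 and TSC1.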
